A study of Mus musculus with 6 samples.

Results

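The genes of cholesterol and fatty acid synthesis were examined in cells sorted from mouse breast tumours as Elf5+ or Elf5-. The set holds 41 genes, found in the table of 52325 genes by matching each Ensembl identifier to its mouse symbol. They fall into 5 roles, namely 16 genes of sterol synthesis, 6 of sterol sensing and transfer, 6 of fatty acid synthesis, 7 of desaturation and elongation, and 6 of glycerolipid synthesis and the lipid droplet. Fatty acid synthesis together with desaturation and elongation is called the fatty acid arm, with 13 genes.

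RNA sequencing was done on total RNA of sorted cells, with 2 Elf5+ and 4 Elf5- libraries. All cells came from C57BL/6 mice with C3-T tumours that carry the Elf5-GFP reporter, in which green fluorescent protein (GFP) stands for expression of Elf5, a transcription factor of the luminal and alveolar cells of the mammary gland. Tumours were digested with collagenase and hyaluronidase, sorted with antibodies to CD45, CD31 and TER119, which mark leukocytes, endothelial cells and erythroid cells, and then by GFP. The Elf5+ and Elf5- cells therefore share the tumour background and the reporter and were separated by the GFP gate. The labels give no other treatment, no age and no marker that limits the Elf5- gate to tumour cells. Titles also carry a number and a code, T1 or T2, that the labels do not define. Elf5+ library 1 and Elf5- library 2 share a title number and the code T2, Elf5+ library 2 and Elf5- library 4 have T2 with the other number, and Elf5- libraries 1 and 3 have T1, library 1 with the number of the first pair and library 3 with that of the second. T1 thus occurs only among Elf5- libraries, and the comparison of all 6 libraries partly mixes this code with the gate. Nothing in the labels ties the libraries to separate animals. The p-values here cover just the variation among these 6 libraries. Within a gate, counts varied far more than sampling of reads would give. Chi-square per degree of freedom ran from 74 to 340 over library pairs, where sampling alone gives about 1. The labels do not say whether this variation lies between animals, between tumours or in the handling of the cells.

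Cholesterol is built from acetyl-CoA through mevalonate, the isoprenes, squalene and lanosterol. Its enzymes are transcribed under SREBP-2, the product of Srebf2, while the SREBP-1 proteins made from Srebf1 act mainly on the genes of fatty acid synthesis. INSIG proteins hold both precursors with their escort SCAP in the endoplasmic reticulum, from which they move on to be cleaved when sterols are low. In the mammary gland fatty acid and triglyceride synthesis serve milk fat, and Elf5 is known as a regulator of the alveolar cells that make milk.

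Elf5 itself was measured at 77.7 and 137 CPM (counts scaled to a common library total with trimmed-mean-of-M-values factors) in Elf5+ libraries 1 and 2, against 10.7, 6.93, 10.5 and 24.7 CPM in Elf5- libraries 1 to 4. The log2 fold change of Elf5+ over Elf5- was 3.04 (SE 0.48, adjusted p = 0.0165, edgeR quasi-likelihood test with Benjamini-Hochberg adjustment over 20684 genes), and no Elf5- library reached the Elf5+ range. Library totals ran from 9106660 counts in Elf5- library 4 to 53694884 counts in Elf5- library 3. The sum of 18 epithelial markers ran from 6376 to 9353 CPM in Elf5+ libraries, against 2369 to 4022 CPM in Elf5- libraries, and 11 of the 18 passed as higher. The sum of 10 fibroblast markers ran from 1121 to 1382 CPM in Elf5+ libraries, against 17364 to 50998 CPM in Elf5- libraries, and 9 of the 10 passed as lower. The Elf5- libraries thus held both epithelial and fibroblast transcripts. In such bulk libraries fewer cells of a type and less RNA per cell cannot be told apart. The sum of 6 skeletal muscle markers was 3.62 and 3.52 CPM in Elf5+ libraries, against 202, 36.2, 2.69 and 4.94 CPM in Elf5- libraries, so that Elf5- libraries 1 and 2 stood apart. The part of these cell types in the results was not tested.

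Windows from 250 bases before to 50 bases after the start site were found for 31 of the 41 genes, 41 windows in all, in RefSeq on mouse build GRCm38.p6. Those of Hmgcs1, Mvd and Msmo1 are shown as examples of the 12 sterol synthesis genes with the order of libraries described below. Hmgcs1 was also the one gene with a match to the sterol element. The most upstream of the 3 Srebf1 windows is shown because Srebf1 had the smallest p-value of the set. Sequences run 5′ to 3′ on the strand of the gene, and capitals mark matches to the sterol regulatory element searched (TCACNCCAC) or the CCAAT box (CCAAT, or ATTGG where it lies on the other strand). The windows are chr13:119690101-119690400 on the + strand for Hmgcs1, chr8:122443373-122443672 on the - strand for Mvd, chr8:64733529-64733828 on the - strand for Msmo1, and chr11:60222532-60222831 on the - strand for Srebf1.
Hmgcs1: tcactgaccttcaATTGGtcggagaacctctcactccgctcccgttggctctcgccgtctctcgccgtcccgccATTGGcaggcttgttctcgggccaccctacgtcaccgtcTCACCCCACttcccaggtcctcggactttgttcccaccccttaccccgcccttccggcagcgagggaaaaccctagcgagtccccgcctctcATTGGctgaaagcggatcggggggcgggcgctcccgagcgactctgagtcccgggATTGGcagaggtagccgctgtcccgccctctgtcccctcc
Mvd: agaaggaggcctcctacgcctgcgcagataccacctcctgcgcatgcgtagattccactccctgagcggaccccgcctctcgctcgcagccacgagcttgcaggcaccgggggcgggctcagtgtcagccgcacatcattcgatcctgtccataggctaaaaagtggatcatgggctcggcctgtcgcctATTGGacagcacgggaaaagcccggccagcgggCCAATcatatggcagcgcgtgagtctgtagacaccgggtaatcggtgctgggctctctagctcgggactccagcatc
Msmo1: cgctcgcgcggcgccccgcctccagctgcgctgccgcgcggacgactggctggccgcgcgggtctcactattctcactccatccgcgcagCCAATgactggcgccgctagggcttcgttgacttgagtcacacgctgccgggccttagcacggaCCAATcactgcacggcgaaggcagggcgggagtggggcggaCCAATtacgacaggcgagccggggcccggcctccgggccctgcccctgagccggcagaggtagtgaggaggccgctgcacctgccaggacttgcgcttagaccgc
Srebf1: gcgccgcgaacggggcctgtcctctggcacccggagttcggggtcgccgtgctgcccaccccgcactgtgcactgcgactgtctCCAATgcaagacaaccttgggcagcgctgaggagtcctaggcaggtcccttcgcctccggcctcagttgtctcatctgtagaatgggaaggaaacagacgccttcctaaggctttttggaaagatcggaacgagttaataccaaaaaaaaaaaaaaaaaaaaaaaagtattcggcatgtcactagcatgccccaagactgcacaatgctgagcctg

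Both motifs were searched on both strands. In Hmgcs1 the sterol element read TCACCCCAC, 137 bases before the start site, and 4 CCAAT boxes lay in the same window. Mvd held 2 CCAAT boxes, Msmo1 3 and the Srebf1 window shown 1. The window of Acat2, which also has the order of libraries described below, held 0 matches to either motif. Over the set the sterol element was found in 1 of 41 windows (2.44%), against 1.24% of all 32851 windows of the table. The CCAAT box was found in 25 of 41 windows (61.0%), against 37.4% of all windows, and in 12 of 16 windows of the sterol synthesis genes (75.0%). A match here describes letters in the window and not a bound site. Only the form TCACNCCAC was searched, so a window without a match may still hold a variant of the sterol element.

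Of the 41 genes 40 passed the filter on low counts, and 0 of them passed the test between Elf5+ and Elf5- cells in either direction at an adjusted p below 0.05 (edgeR). Over all genes tested 0.585% passed as higher and 3.79% as lower. At an unadjusted p below 0.05, edgeR had 3 genes of the set, Srebf1, Elovl6 and Xdh, where 16.9% of all genes reached that level. DESeq2 called 1 gene of the set higher, Srebf1, where it called 2.11% of all genes, and 1 lower, Xdh, where it called 8.52%. The CPM of Elf5+ and Elf5- libraries did not overlap in 2 genes with Elf5+ above, Pmvk and Srebf1, where 10.9% of all genes did so, and in 3 with Elf5+ below, Acss2, Dgat2 and Xdh, where 14.8% did. All these shares of the set lie near or under the shares of all genes.

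The log2 fold changes of the 40 genes ran from -1.11 in Xdh to 1.25 in Elovl6, with a median of 0.15 beside 0.05 over all genes. Of the 40, 26 were above 0 and 14 below. The median was 0.15 for sterol synthesis, 0.17 for sensing and transfer and -0.02 for fatty acid synthesis. It was 0.23 for desaturation and elongation, and -0.30 for the glycerolipid and droplet genes. Without Elf5+ library 1 the sterol synthesis median was -0.14. Without Elf5+ library 2 that of desaturation and elongation was -0.36 and that of the glycerolipid and droplet genes 0.21. With each library left out in turn, the fatty acid synthesis median ran from -0.14 to 0.0055. Sensing and transfer then stayed above 0, from 0.11 to 0.31. A fold change in the set had a 95% interval that reached 0.777 to either side in the median gene, beside 1.06 over all genes. With libraries scaled to the 18 epithelial markers the median of all genes shifted to -1.44, and 31 of the 40 genes passed as lower beside 56.8% of all genes. Relative to that shift the medians were 0.10 for sterol synthesis and 0.02 for the fatty acid arm, beside 0.10 and 0.05 relative to the median of all genes without it.

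**Figure D1:**
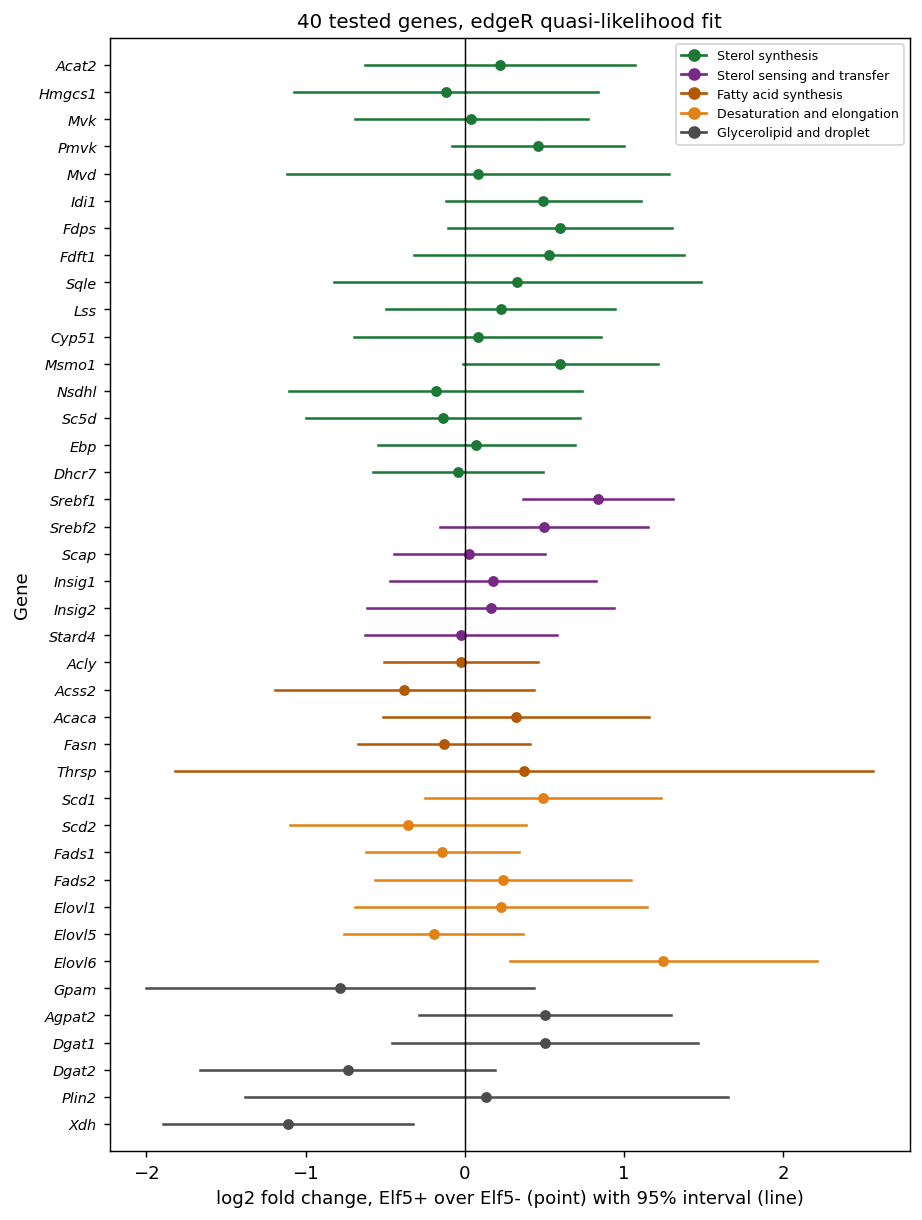
Log2 fold change of Elf5+ over Elf5- (points) with its 95% interval (lines) for the 40 genes tested, one gene per row and coloured by role. The intervals of Srebf1, Elovl6 and Xdh leave 0 on one side, and none of the 40 passed after adjustment.

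Levels were compared between genes per length, as mean CPM per kilobase of exon. Over all 6 libraries the highest were Plin2, with 48.2 in Elf5+ and 43.8 in Elf5- libraries, and Scd2, with 35.7 in Elf5+ and 45.8 in Elf5- libraries. Next came Srebf2, with 42.6 in Elf5+ and 30.2 in Elf5- libraries, and Srebf1, with 47.0 in Elf5+ and 26.3 in Elf5- libraries. The sterol synthesis genes ran in Elf5+ libraries from 3.41 for Lss to 36.9 for Fdps, and in Elf5- libraries from 2.92 for Lss to 27.6 for Hmgcs1. The lowest genes tested were Thrsp, with 0.339 in Elf5+ and 0.250 in Elf5- libraries, and Acss2, with 0.486 in Elf5+ and 0.632 in Elf5- libraries. Gpam had 0.770 in Elf5+ and 1.33 in Elf5- libraries, and Dgat2 had 1.10 in Elf5+ and 1.82 in Elf5- libraries. Both SREBP genes were thus near the top of the set in level, while the sterol enzymes were spread from near the bottom to near the top.

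The first steps of sterol synthesis turn acetyl-CoA into mevalonate and its phosphates. Acat2, the cytosolic enzyme that condenses acetyl-CoA, had 41.8 and 24.7 CPM in Elf5+ libraries 1 and 2, against 23.2, 43.6, 26.7 and 20.6 CPM in Elf5- libraries 1 to 4. Hmgcs1, which makes HMG-CoA, had 151 and 82.2 CPM in Elf5+ libraries, against 145, 179, 116 and 67.1 CPM in Elf5- libraries. In both genes the Elf5+ values lay within the range of the Elf5- values, and Elf5+ library 1 and Elf5- library 2 were the highest. For Hmgcs1 the log2 fold change was -0.12 with a 95% interval from -1.07 to 0.84 (edgeR). Mvk, mevalonate kinase, had 12.9 and 10.1 CPM in Elf5+ libraries, against 8.82, 14.4, 10.7 and 10.9 CPM in Elf5- libraries. Pmvk, phosphomevalonate kinase, had 40.2 and 41.5 CPM in Elf5+ libraries, against 29.1, 34.3, 23.1 and 32.5 CPM in Elf5- libraries. Pmvk was the one gene of sterol synthesis whose groups did not overlap, and its log2 fold change of 0.46 (SE 0.23) had an adjusted p of 0.390 (edgeR). Mvd, the decarboxylase that makes isopentenyl diphosphate, had 33.7 and 14.1 CPM in Elf5+ libraries, against 21.0, 40.4, 14.9 and 13.8 CPM in Elf5- libraries. Its Elf5+ library 1 and Elf5- library 2 stood above the other 4.

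From isopentenyl diphosphate the path runs through farnesyl diphosphate to squalene. Idi1, the isomerase, had 113 and 81.9 CPM in Elf5+ libraries, against 78.5, 85.0, 57.6 and 54.9 CPM in Elf5- libraries. Fdps, farnesyl diphosphate synthase, had 173 and 137 CPM in Elf5+ libraries, against 86.2, 153, 89.7 and 81.9 CPM in Elf5- libraries. For Fdps the single Elf5- library 2 reached into the Elf5+ range, and the log2 fold change was 0.60 (SE 0.30, adjusted p = 0.391, edgeR). Fdft1, squalene synthase, had 109 and 57.0 CPM in Elf5+ libraries, against 41.4, 80.9, 65.2 and 42.7 CPM in Elf5- libraries. Its exons share 18.3% of their bases with Ctsb on the opposite strand, and the use of strand in counting is not given in the sources used here. Sqle, squalene epoxidase, a rate-controlling oxygen-using step, had 168 and 94.3 CPM in Elf5+ libraries, against 60.1, 178, 122 and 56.2 CPM in Elf5- libraries. Sqle spread 3.17-fold over the 6 libraries, the widest of the sterol synthesis genes, and the highest and the lowest library were both Elf5-.

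Lanosterol is made by Lss and turned into cholesterol by demethylation, isomerization and reduction. Lss had 32.3 and 41.3 CPM in Elf5+ libraries, against 22.3, 43.2, 25.4 and 35.3 CPM in Elf5- libraries. Cyp51, the lanosterol demethylase, had 109.7 and 83.2 CPM in Elf5+ libraries, against 59.1, 129, 103 and 73.6 CPM in Elf5- libraries. Msmo1, the methyl sterol oxidase, had 146 and 112 CPM in Elf5+ libraries, against 73.4, 116, 73.5 and 77.0 CPM in Elf5- libraries. Msmo1 had the smallest adjusted p of the 16 genes, 0.309 (edgeR), with a log2 fold change of 0.60 (SE 0.27), and its Elf5- library 2 alone overlapped the Elf5+ range. Nsdhl, the sterol dehydrogenase that acts with it, had 33.9 and 17.7 CPM in Elf5+ libraries, against 23.5, 41.5, 33.6 and 18.6 CPM in Elf5- libraries. Sc5d, a sterol desaturase, had 40.3 and 24.6 CPM in Elf5+ libraries, against 37.6, 52.3, 29.8 and 22.5 CPM in Elf5- libraries. For both Nsdhl and Sc5d the highest library was an Elf5- one. Ebp, the sterol isomerase, had 75.3 and 50.0 CPM in Elf5+ libraries, against 54.4, 64.3, 72.3 and 47.0 CPM in Elf5- libraries. Dhcr7, the reductase of the last step of one branch, had 35.0 and 51.1 CPM in Elf5+ libraries, against 40.4, 47.6, 44.2 and 45.6 CPM in Elf5- libraries. Dhcr7 varied least of the 16, 1.46-fold over the 6 libraries, with the Elf5+ libraries as its lowest and highest.

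The sterol synthesis genes shared an order of libraries that cut across the gates, except under scaling to epithelial markers. In 12 of the 16 genes (75.0%) Elf5+ library 1 and Elf5- library 2, which share a title number and T2, were the 2 highest libraries, as they were in 12.6% of all genes tested and in 1 of 13 genes of the fatty acid arm (7.69%). Pmvk, Lss, Ebp and Dhcr7 were the exceptions. Elf5- library 2 was the highest of the Elf5- libraries in 15 of 16 genes (93.8%), Ebp being the exception, beside 25.5% of all genes. Elf5+ library 1 lay above Elf5+ library 2 in 13 of 16 (81.2%), beside 50.7% of all genes. Parts of this order were also seen outside sterol synthesis. The same 2 libraries were highest in 3 of 6 glycerolipid and droplet genes (50.0%) and 2 of 6 sensing and transfer genes (33.3%). In these 2 roles Elf5- library 2 led the Elf5- libraries in 50.0% and 66.7%, and Elf5+ library 1 exceeded Elf5+ library 2 in 83.3% and 33.3%. At the other end Elf5- library 4 was the lowest of the 6 in 8 sterol synthesis genes and Elf5- library 1 in 5. How often each was lowest over all genes was not counted. This ordering was noticed after the values were seen and is given as a description with no test, since genes are not replicates.

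The same order held with relative-log-expression factors, where the 2 libraries led in 11 of 16 genes beside 11.9% of all genes. Scaled to epithelial markers they led in 0 of 16 genes, beside 0.769% of all genes, while Elf5- library 2 was still highest of the Elf5- libraries in 11 of 16, beside 17.9% of all genes. The epithelial marker sum was 9353 CPM in Elf5+ library 1 and 6376 CPM in Elf5+ library 2, against 3345 CPM in Elf5- library 2 and 2660 CPM in Elf5- library 4, and Elf5- library 4 also had the fewest counts. Their part in the ordering was not tested. Of the 10 other genes of sterol and prenyl synthesis, 2 had the same 2 libraries on top.

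**Figure D2:**
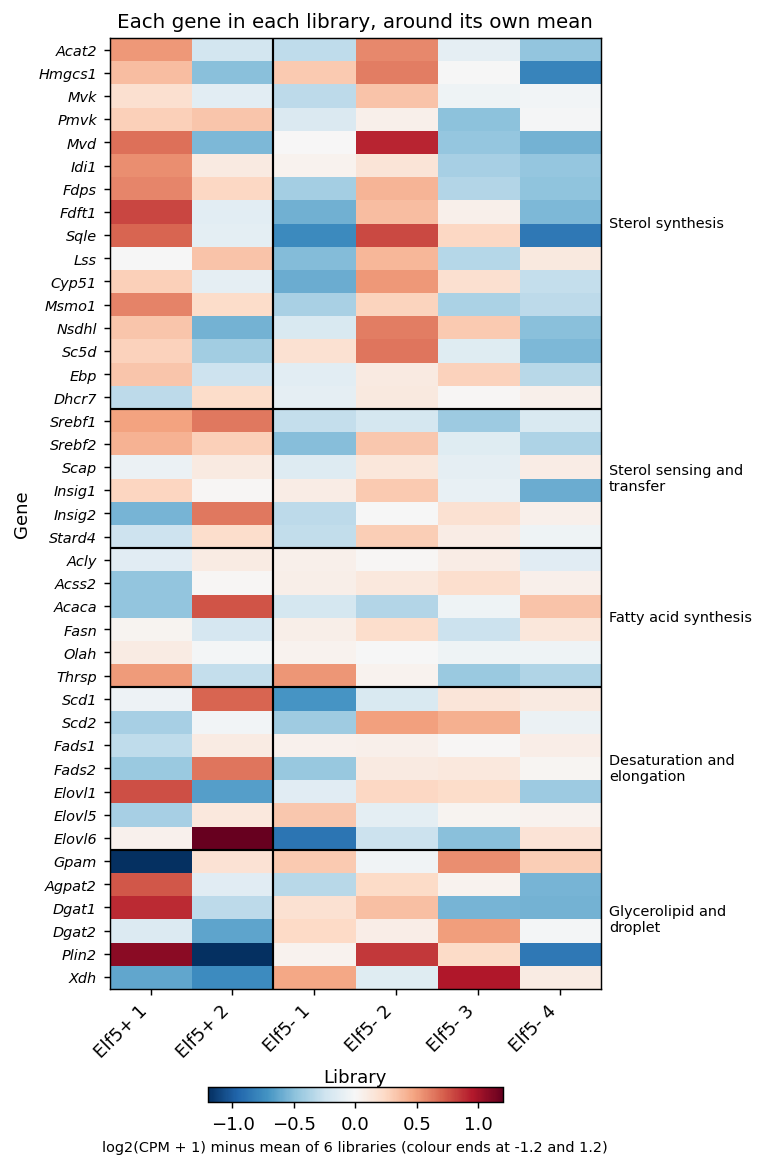
Each of the 41 genes (rows, grouped by role) in each of the 6 libraries (columns, Elf5+ left of the black line and Elf5- right of it), as log2(CPM + 1) minus the mean of the gene over the 6 libraries, with red above and blue below that mean. Elf5+ library 1 and Elf5- library 2 are red in most of the 16 sterol synthesis rows, Elf5- library 4 is blue in most, and the fatty acid rows show no such shared order.

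Averaged over the 16 sterol synthesis genes, log2(CPM + 1) was 6.02 and 5.54 in Elf5+ libraries 1 and 2, against 5.39, 6.07, 5.53 and 5.26 in Elf5- libraries 1 to 4. The Elf5+ mean was 5.78 ± 0.34 (SD, n = 2) and the Elf5- mean 5.56 ± 0.35 (SD, n = 4), a difference of 0.22 that is smaller than either SD. Averaged over the 13 genes of the fatty acid arm it was 5.11 and 5.41 in Elf5+ libraries, against 5.07, 5.23, 5.20 and 5.20 in Elf5- libraries. The Elf5+ mean was 5.26 ± 0.21 (SD, n = 2) and the Elf5- mean 5.18 ± 0.07 (SD, n = 4). As an average the fatty acid arm was thus the steadier over the Elf5- libraries, and the Elf5+ libraries lay in the opposite order in the 2 arms. The fatty acid average includes Olah and Thrsp, of low level, whose changes this scale understates. Genes that change in opposite directions also cancel in such an average.

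The sterol average minus the fatty acid average was 0.91 and 0.14 in Elf5+ libraries, against 0.32, 0.84, 0.34 and 0.07 in Elf5- libraries. Its mean was 0.53 ± 0.55 (SD, n = 2) in Elf5+ libraries and 0.39 ± 0.32 (SD, n = 4) in Elf5- libraries. The gap between the arms was widest in Elf5+ library 1 and Elf5- library 2, and smallest in Elf5- library 4 and Elf5+ library 2, so each gate held a wide and a narrow library. The 2 Elf5+ libraries differed from each other by more than the Elf5+ and Elf5- means did in 33 of the 41 genes, in 12 of 16 sterol synthesis genes and in 13 of 13 genes of the fatty acid arm. Over all genes tested this was so in 60.0%. Olah, which did not pass the filter, is counted in the 41 and the 13 but not among all genes tested.

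**Figure D3:**
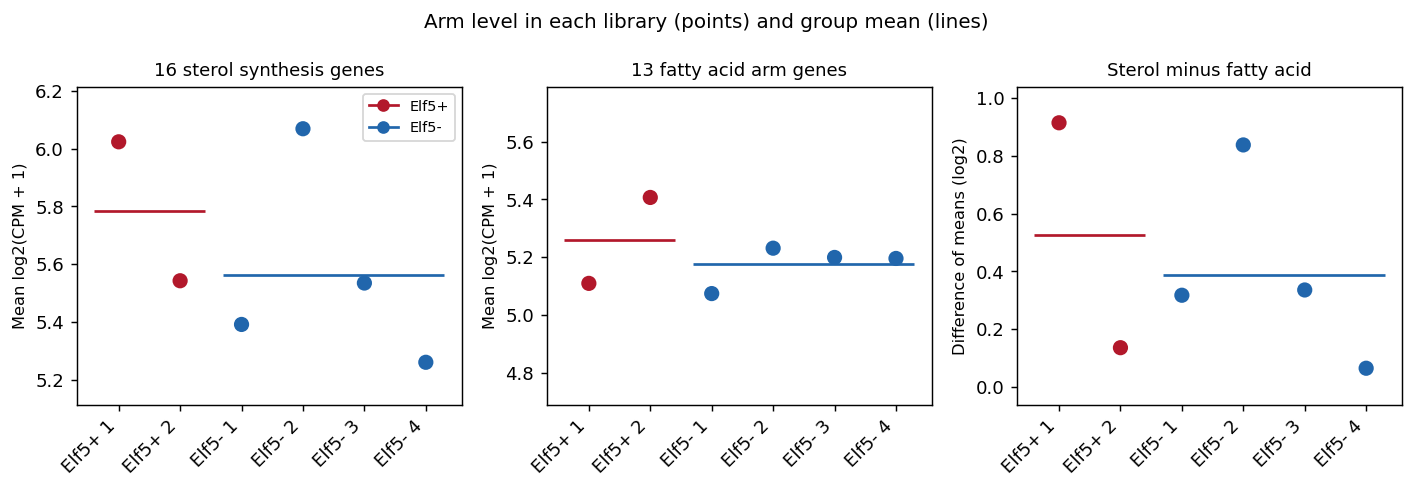
Mean log2(CPM + 1) over the 16 sterol synthesis genes, over the 13 genes of the fatty acid arm, and the difference of the 2 means, one point per library and one line per group mean (Elf5+ left, Elf5- right). Sterol averages reach 6.02 in Elf5+ library 1 and 6.07 in Elf5- library 2, and the Elf5+ and Elf5- points overlap in all 3 panels.

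Among the sensing and transfer genes, Srebf1 on chromosome 11 (60199089 to 60222581, GRCm38, - strand), which encodes the SREBP-1 proteins, had 251 and 279 CPM in Elf5+ libraries, against 147, 156, 133 and 158 CPM in Elf5- libraries. Both Elf5+ libraries lay above all 4 Elf5- libraries, with no overlap. Its log2 fold change was 0.84 (SE 0.20, 95% interval 0.36 to 1.31), with an adjusted p of 0.0655 by edgeR and 0.00205 by DESeq2. With libraries scaled to epithelial markers the log2 fold change was -0.65, which is 0.79 above the median of all genes under that scaling. Gene-level counts do not separate the start sites of Srebf1, and its isoforms were not analysed here. Srebf2, which encodes SREBP-2, had 320.0 and 292 CPM in Elf5+ libraries, against 168, 299, 217 and 185 CPM in Elf5- libraries. Here Elf5- library 2 again lay within the Elf5+ range, and the log2 fold change was 0.50 (SE 0.28).

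Scap, the escort protein of both SREBPs, had 75.5 and 85.9 CPM in Elf5+ libraries, against 71.2, 87.2, 73.7 and 84.6 CPM in Elf5- libraries. The fold change of Scap was 0.03 on the log2 scale, with a 95% interval from -0.44 to 0.50 (edgeR). Insig1, the retention protein that is itself a target of SREBP, had 102 and 85.6 CPM in Elf5+ libraries, against 90.3, 105, 79.7 and 55.6 CPM in Elf5- libraries. Insig2, its paralog, had 42.3 and 97.9 CPM in Elf5+ libraries, against 50.5, 62.9, 71.5 and 65.8 CPM in Elf5- libraries. The lowest and the highest Insig2 libraries were both Elf5+, and Insig1 had the opposite order between these 2 libraries. Stard4, a carrier of cholesterol between membranes, had 28.2 and 39.2 CPM in Elf5+ libraries, against 27.2, 41.7, 35.8 and 32.5 CPM in Elf5- libraries, overlapping throughout.

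Fatty acid synthesis begins with cytosolic acetyl-CoA. Acly, which makes it from citrate, had 147 and 173 CPM in Elf5+ libraries, against 168, 163, 172 and 147 CPM in Elf5- libraries. Acly was the steadiest gene of the 41, 1.18-fold from lowest to highest, and its log2 fold change of -0.02 had a 95% interval from -0.50 to 0.46 (edgeR). Acss2, which makes acetyl-CoA from acetate, had 3.94 and 5.94 CPM in Elf5+ libraries, against 6.20, 6.46, 6.88 and 6.17 CPM in Elf5- libraries. Both Elf5+ libraries lay below all Elf5- libraries, and the log2 fold change was -0.38 (SE 0.35, adjusted p = 0.679, edgeR). Acaca, the acetyl-CoA carboxylase that makes malonyl-CoA, had 47.6 and 113 CPM in Elf5+ libraries, against 57.0, 51.6, 63.8 and 84.3 CPM in Elf5- libraries. Its lowest and highest libraries were both Elf5+. Fasn, the synthase that builds palmitate, had 194 and 165 CPM in Elf5+ libraries, against 199, 219.7, 159 and 209 CPM in Elf5- libraries. For Fasn the log2 fold change was -0.13 with a 95% interval from -0.67 to 0.41 (edgeR). Thrsp, a lipogenic protein induced in the lactating gland, had 1.21 and 0.271 CPM in Elf5+ libraries, against 1.24, 0.599, 0.142 and 0.206 CPM in Elf5- libraries. Olah, the thioesterase that ends chains early for milk fat, did not pass the filter, with 5 and 1 counts in Elf5+ libraries, against 3, 1, 0 and 0 counts in Elf5- libraries.

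Elovl6 on chromosome 3 (129532355 to 129638495, GRCm38, + strand), which elongates palmitate to stearate, had 32.1 and 84.4 CPM in Elf5+ libraries, against 16.4, 25.7, 21.6 and 34.9 CPM in Elf5- libraries. Elf5+ library 2 stood above all others, while Elf5+ library 1 lay below Elf5- library 4. The log2 fold change was 1.25 (SE 0.42, 95% interval 0.28 to 2.21, adjusted p = 0.163, edgeR). It passed without Elf5+ library 1, at 1.78 (adjusted p = 0.0442, edgeR), and was 0.39 without Elf5+ library 2 (adjusted p = 0.702, edgeR), so 1 library decides the call. Scaled to epithelial markers it was -0.16, which is 1.28 above the median of all genes under that scaling. Elovl1, the elongase of very long saturated chains, had 118 and 43.0 CPM in Elf5+ libraries, against 62.5, 81.8, 80.2 and 50.7 CPM in Elf5- libraries. Elovl5, an elongase of polyunsaturated chains, had 46.5 and 67.5 CPM in Elf5+ libraries, against 77.5, 57.0, 63.2 and 63.5 CPM in Elf5- libraries. Elovl1 had its highest and its lowest value in the Elf5+ libraries, in the opposite order to Elovl6.

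Scd1, a stearoyl-CoA desaturase that makes oleate, had 119 and 202 CPM in Elf5+ libraries, against 75.8, 109, 138 and 134 CPM in Elf5- libraries. Scd2, its close paralog, had 171 and 220.0 CPM in Elf5+ libraries, against 167, 317, 302 and 214 CPM in Elf5- libraries. Neither passed the test, with log2 fold changes of 0.49 (SE 0.32) for Scd1 and -0.36 (SE 0.32) for Scd2 and adjusted p-values of 0.529 and 0.672 (edgeR). The ratio of Scd1 to Scd2 CPM was 0.698 and 0.918 in Elf5+ libraries, against 0.455, 0.345, 0.456 and 0.624 in Elf5- libraries. This ratio did not overlap between Elf5+ and Elf5- libraries, and it does not depend on library scaling. It was one of 4 paralog ratios looked at after the values were seen and carries no test. How often the ratio of any 2 genes separates Elf5+ from Elf5- libraries was not counted. Estimated counts also share reads between such copies by model. Fads1, a desaturase of polyunsaturated fatty acids, had 76.5 and 102 CPM in Elf5+ libraries, against 98.1, 98.6, 95.8 and 100.3 CPM in Elf5- libraries. Fads2, the desaturase of the step before it, had 18.4 and 40.1 CPM in Elf5+ libraries, against 18.2, 27.3, 27.7 and 25.8 CPM in Elf5- libraries. The 4 Elf5- values of Fads1 were nearly equal, while its Elf5+ values were the lowest and the highest of the 6. In 6 of the 13 genes of the fatty acid arm Elf5+ library 2 was the highest library, a rank that was not counted over all genes.

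**Figure D4:**
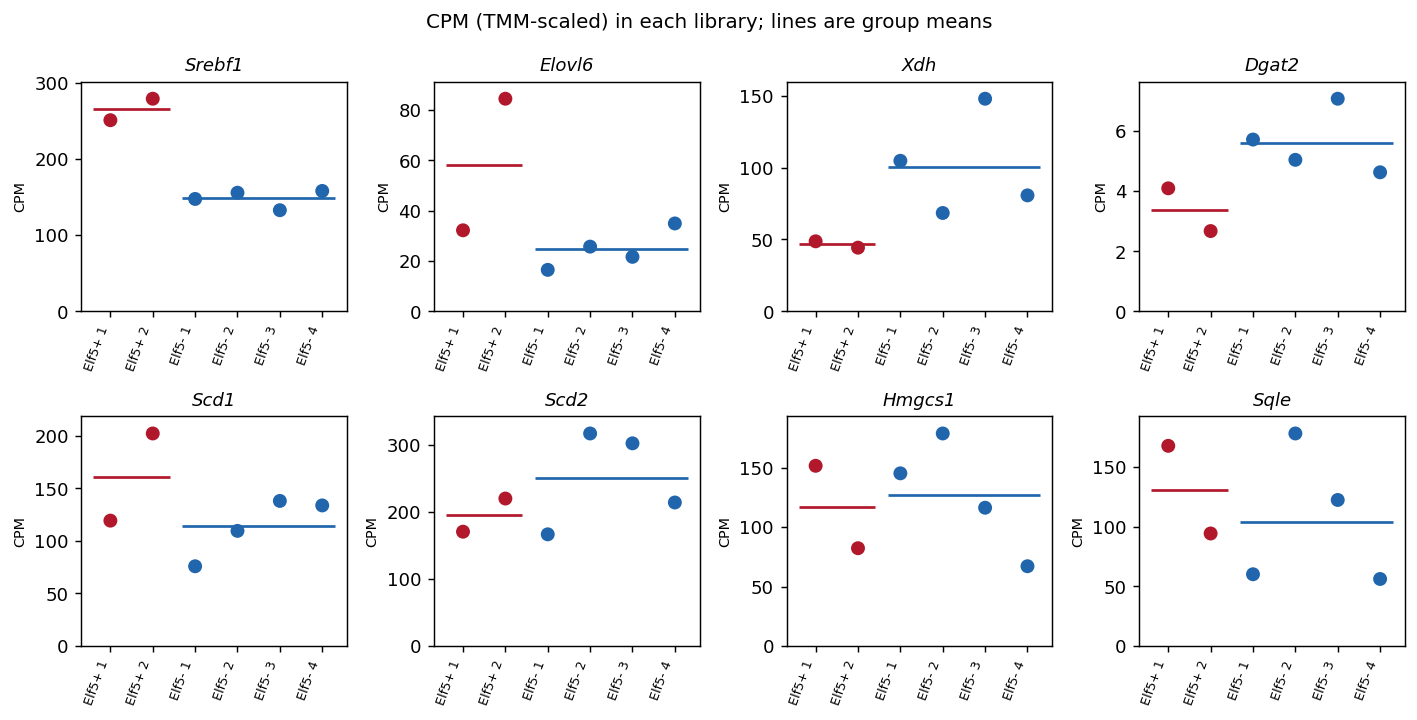
CPM in each library (points, Elf5+ left of Elf5-) with group means (lines) for Srebf1, Elovl6, Xdh, Dgat2, Scd1, Scd2, Hmgcs1 and Sqle, each axis from 0. Srebf1, Xdh and Dgat2 do not overlap between Elf5+ and Elf5-, while Hmgcs1 and Sqle peak in Elf5+ library 1 and Elf5- library 2.

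The glycerolipid and droplet genes join fatty acids to glycerol and store them. Gpam, the mitochondrial acyltransferase of the first step, had 2.25 and 8.01 CPM in Elf5+ libraries, against 8.97, 6.75, 10.8 and 8.84 CPM in Elf5- libraries. Agpat2, the acyltransferase of the second step, had 40.3 and 21.5 CPM in Elf5+ libraries, against 18.7, 28.1, 24.4 and 15.8 CPM in Elf5- libraries. Both overlapped between Elf5+ and Elf5- libraries. Dgat1, one of the enzymes of the last step, had 70.9 and 30.1 CPM in Elf5+ libraries, against 42.9, 48.9, 25.3 and 25.2 CPM in Elf5- libraries. Dgat2, an unrelated enzyme of the same step, had 4.09 and 2.67 CPM in Elf5+ libraries, against 5.72, 5.04, 7.08 and 4.63 CPM in Elf5- libraries. Dgat2 did not overlap, and its log2 fold change was -0.74 (SE 0.40, adjusted p = 0.429, edgeR). The ratio of Dgat1 to Dgat2 CPM was 17.3 and 11.3 in Elf5+ libraries, against 7.51, 9.69, 3.58 and 5.44 in Elf5- libraries, without overlap. Dgat2 had 45 counts in Elf5- library 4, and how often ratios of other genes separate was not counted. The ratios of Insig1 to Insig2 and of Srebf1 to Srebf2, the other 2 looked at besides Scd1 to Scd2, overlapped.

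Plin2, the coat protein of lipid droplets, had 287 and 51.7 CPM in Elf5+ libraries, against 139, 244, 159 and 74.0 CPM in Elf5- libraries. Its 2 Elf5+ libraries were the highest and the lowest of the 6, and the spread of 5.55-fold left its log2 fold change of 0.14 with a 95% interval from -1.38 to 1.65 (edgeR). Xdh on chromosome 17 (73883895 to 73950196, GRCm38, - strand), xanthine oxidoreductase, a purine enzyme that also takes part in the secretion of milk fat droplets, had 48.7 and 44.3 CPM in Elf5+ libraries, against 105, 68.5, 148 and 80.7 CPM in Elf5- libraries. Both Elf5+ libraries lay below all 4 Elf5- libraries. The log2 fold change was -1.11 (SE 0.34, 95% interval -1.90 to -0.33), with an adjusted p of 0.127 by edgeR and 0.0499 by DESeq2. The Elf5- libraries were ordered alike in Xdh and in the summed fibroblast markers, which were 24557, 17364, 50998 and 18482 CPM in Elf5- libraries 1 to 4. The part of those cells in the Xdh values was not tested. Milk and alveolar markers summed to 259 and 685 CPM in Elf5+ libraries, against 199, 52.2, 32.0 and 257 CPM in Elf5- libraries, and 0 of the 8 passed (edgeR, 1 at an unadjusted p below 0.05).

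Around these 41 genes, 96 genes in 7 lists of neighbouring lipid functions were examined, of which 92 were tested. In edgeR 2 of them rose in Elf5+ cells, Elovl7 and Mfge8, and 4 fell, Lpl, Lrp1, Lipa and Soat1, where 0.585% of all genes rose and 3.79% fell. The share of these genes that fell is near that of all genes, so the count says nothing particular to them. The 4 that fell act in uptake of lipoproteins or their fatty acids, in lysosomal hydrolysis and in cholesterol esterification, and the 2 that rose are an elongase and a protein of the milk fat globule. With Elf5- libraries 1 and 2 both removed, Lpl still passed (adjusted p = 0.0480, edgeR) and the other 5 did not, with adjusted p-values from 0.0572 for Lrp1 to 0.350 for Elovl7 (edgeR).

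Of 14 genes of sterol uptake, transport and efflux 3 fell, where 3.79% of all genes did, and the median log2 fold change was -0.55. Lrp1, a large endocytic lipoprotein receptor, had 111 and 146 CPM in Elf5+ libraries, against 777, 639, 976 and 813 CPM in Elf5- libraries, or -2.64 as a log2 fold change (SE 0.32, adjusted p = 0.0114, edgeR). Lipa, the lysosomal acid lipase, had 12.8 and 13.8 CPM in Elf5+ libraries, against 54.4, 30.6, 61.6 and 40.2 CPM in Elf5- libraries, or -1.81 as a log2 fold change (SE 0.34, adjusted p = 0.0275, edgeR). The groups stood well apart in both genes. Soat1, which esterifies cholesterol for storage, had 16.1 and 22.0 CPM in Elf5+ libraries, against 42.0, 61.5, 58.9 and 62.8 CPM in Elf5- libraries, or -1.56 as a log2 fold change (SE 0.28, adjusted p = 0.0237, edgeR). The Lipa call was lost without Elf5+ library 1, Elf5+ library 2, Elf5- library 1 or Elf5- library 3, with adjusted p-values of 0.0880, 0.10, 0.0844 and 0.0687 (edgeR). The Soat1 call was lost without Elf5+ library 1, Elf5+ library 2, Elf5- library 2 or Elf5- library 3, with adjusted p-values of 0.0878, 0.0568, 0.0526 and 0.0690 (edgeR). The direction stayed in each case, and the Lrp1 call stayed without any one library.

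Of 10 genes of fatty acid uptake and binding 9 were tested and 1 fell, where 3.79% of all genes did, with a median of -0.44. Lpl, the lipoprotein lipase that frees fatty acids from circulating lipoproteins, had 5.20 and 4.49 CPM in Elf5+ libraries, against 304, 93.3, 235 and 105 CPM in Elf5- libraries. Its log2 fold change of -5.25 (SE 0.65, adjusted p = 0.0114, edgeR) passed without any one library. Fabp4, a fatty acid binding protein of adipocytes and endothelium, had 16.9 and 2.90 CPM in Elf5+ libraries, against 71.5, 39.8, 34.4 and 12.1 CPM in Elf5- libraries, and its adjusted p was 0.285 (edgeR). Fabp5, the epidermal paralog, had 110.5 and 166 CPM in Elf5+ libraries, against 92.5, 105, 78.5 and 85.6 CPM in Elf5- libraries, with an adjusted p of 0.241 (edgeR). Lpl, Lrp1, Lipa and Soat1 were lower in the gate where fibroblast markers were also lower, with sums of 1121 to 1382 CPM in Elf5+ and 17364 to 50998 CPM in Elf5- libraries. Summed endothelial markers were lower there too, with 17.7 to 27.2 CPM in Elf5+ and 32.6 to 74.3 CPM in Elf5- libraries, and 2 of the 6 passed as lower (edgeR). Summed macrophage markers overlapped, with 67.2 to 135 CPM in Elf5+ and 73.4 to 224 CPM in Elf5- libraries, and 0 of 8 passed (edgeR). The part of fibroblasts, endothelial cells and macrophages in these values was not tested. Summed adipocyte markers ran from 11.5 to 32.1 CPM in Elf5+ and from 22.8 to 86.1 CPM in Elf5- libraries, with 0 of 10 passing (edgeR, 2 at an unadjusted p below 0.05), Adipoq at no more than 0.823 CPM and Lep at 0 in 4 libraries.

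Of 20 other genes of fatty acid synthesis and elongation 19 were tested and 1 rose, where 0.585% of all genes did, with a median of 0.21. Elovl7, an elongase of saturated chains, had 43.7 and 36.2 CPM in Elf5+ libraries, against 19.6, 20.0, 22.0 and 17.4 CPM in Elf5- libraries. Its log2 fold change was 1.01 (SE 0.22, adjusted p = 0.0458, edgeR), with the Elf5- values close together. This call was lost when any 1 of the 6 libraries was left out, with adjusted p-values from 0.0847 without Elf5- library 4 to 0.180 without Elf5+ library 1 (edgeR). It was also lost with no filter on low counts, at 0.0810 (edgeR), and scaled to epithelial markers the value was -0.48. Hacd1, a dehydratase of the elongation cycle, had 1.82 and 1.66 CPM in Elf5+ libraries, against 6.94, 12.4, 9.26 and 4.11 CPM in Elf5- libraries (adjusted p = 0.0587, edgeR). Hacd1 passed as lower without Elf5- library 4 (adjusted p = 0.0354, edgeR), with no filter on low counts (adjusted p = 0.0217, edgeR) and by DESeq2 (adjusted p = 0.000118). Acsl3, an acyl-CoA synthetase of nascent lipid droplets, had 81.9 and 155 CPM in Elf5+ libraries, against 71.3, 57.0, 68.5 and 84.2 CPM in Elf5- libraries (adjusted p = 0.232, edgeR). Acsl3 was one more gene in which Elf5+ library 2 stood far above Elf5+ library 1.

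Of 20 other genes of glycerolipid synthesis and the droplet 18 were tested and 1 rose, where 0.585% of all genes did, with a median of 0.06. Mfge8, a protein of the milk fat globule membrane, had 1338 and 1594 CPM in Elf5+ libraries, against 534, 527, 588 and 672 CPM in Elf5- libraries. Its log2 fold change was 1.34 (SE 0.25, adjusted p = 0.0273, edgeR), and -0.14 scaled to epithelial markers, where it was 1.30 above the median of all genes. The call was kept without Elf5- library 4, at an adjusted p of 0.0413, and lost without any other single library, with 0.0502 without Elf5+ library 1, 0.120 without Elf5+ library 2, 0.0824 without Elf5- library 1, 0.0775 without Elf5- library 2 and 0.0826 without Elf5- library 3 (edgeR). Pnpla2, the lipase that begins the breakdown of stored triglyceride, had 84.6 and 57.9 CPM in Elf5+ libraries, against 41.4, 33.4, 29.6 and 27.8 CPM in Elf5- libraries. Pnpla2 did not overlap and had an adjusted p of 0.0531 (edgeR), and it passed as higher with no filter on low counts, at 0.0439 (edgeR), and by DESeq2, at 0.00757. Scaled to epithelial markers its log2 fold change was -0.44. Cidea, a droplet protein of brown fat and the mammary gland, had 2.41 and 6.91 CPM in Elf5+ libraries, against 0.568, 0.788, 1.30 and 1.65 CPM in Elf5- libraries (adjusted p = 0.0973 by edgeR and 0.00911 by DESeq2).

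**Figure D5:**
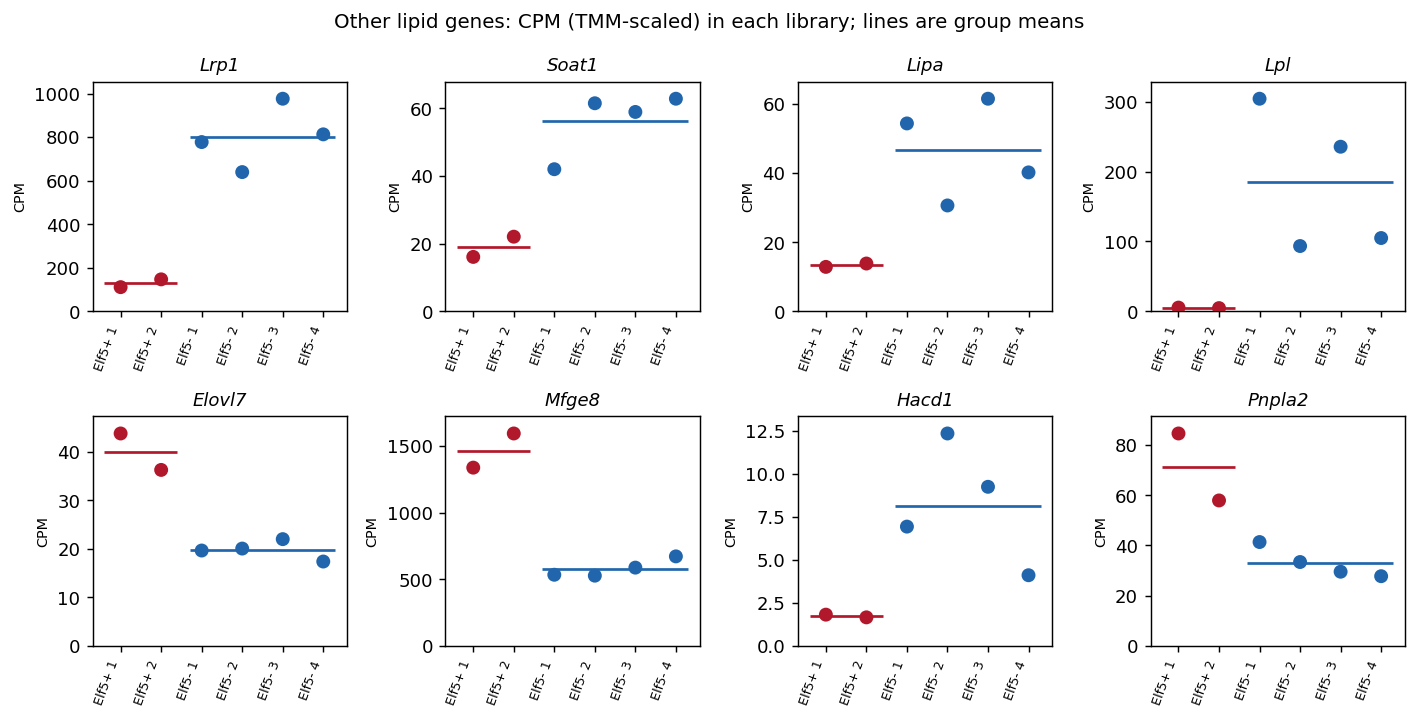
CPM in each library (points, Elf5+ left of Elf5-) with group means (lines) for Lrp1, Soat1, Lipa, Lpl, Elovl7, Mfge8, Hacd1 and Pnpla2, each axis from 0. Lrp1, Soat1, Lipa and Lpl are low in both Elf5+ libraries, and in all 8 genes the Elf5+ and Elf5- points do not overlap. The 8 are among the genes of smallest p in their lists, a choice that favours such separation. Over all genes tested 10.9% did not overlap with Elf5+ above and 14.8% with Elf5+ below.

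Of the 10 other genes of sterol and prenyl synthesis 0 passed (edgeR, 2 at an unadjusted p below 0.05), with a median of 0.06. Lbr, a nuclear membrane protein with sterol reductase activity, had 142 and 207 CPM in Elf5+ libraries, against 96.0, 112, 96.2 and 128 CPM in Elf5- libraries (adjusted p = 0.188, edgeR). Hsd17b7, an enzyme of sterol demethylation, had 19.9 and 23.7 CPM in Elf5+ libraries, against 21.8, 30.4, 30.2 and 26.1 CPM in Elf5- libraries (adjusted p = 0.615, edgeR).

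Of 9 genes of SREBP processing and turnover 0 passed (edgeR, 2 at an unadjusted p below 0.05), with a median of -0.0008. Those 2 were Mlxipl and Fbxw7. The list also holds Mlxipl and Mlx, which are not genes of SREBP processing or turnover. Mlxipl, which encodes the carbohydrate-responsive lipogenic factor ChREBP, had 16.9 and 4.82 CPM in Elf5+ libraries, against 5.13, 4.26, 1.83 and 3.19 CPM in Elf5- libraries. Its adjusted p was 0.202 (edgeR), with Elf5+ library 1 alone standing high. Fbxw7, a ubiquitin ligase subunit that targets SREBPs, had 42.5 and 86.1 CPM in Elf5+ libraries, against 36.3, 35.3, 34.0 and 44.6 CPM in Elf5- libraries (adjusted p = 0.228, edgeR). Mbtps2, a protease that releases SREBPs, had 19.5 and 23.0 CPM in Elf5+ libraries, against 26.6, 27.2, 28.1 and 20.9 CPM in Elf5- libraries (adjusted p = 0.659, edgeR). Elf5+ library 1 lay above Elf5+ library 2 in 1 of these 9 genes, in 13 of the 16 sterol synthesis genes and in 50.7% of all genes.

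Of 13 genes of fatty acid oxidation 0 passed (edgeR, 0 at an unadjusted p below 0.05), with a median of 0.07. Cpt1b, a carnitine palmitoyltransferase of muscle, had 13.7 and 10.6 CPM in Elf5+ libraries, against 4.998, 11.8, 4.66 and 4.42 CPM in Elf5- libraries. Acadl, a mitochondrial acyl-CoA dehydrogenase, had 174 and 124 CPM in Elf5+ libraries, against 102, 115, 132 and 100.4 CPM in Elf5- libraries. Ppargc1a, a coactivator of oxidative metabolism, had 2.52 and 48.6 CPM in Elf5+ libraries, against 2.36, 0.630, 5.68 and 28.4 CPM in Elf5- libraries. Ppargc1a was high in Elf5+ library 2 and Elf5- library 4, which share a title number and T2. In 13 of the 16 sterol synthesis genes Elf5+ library 2 lay below Elf5+ library 1, beside 50.7% of all genes. In all 16 Elf5- library 4 lay below Elf5- library 2, beside 51.6% of all genes. This contrast with Ppargc1a was noticed after the values were seen and carries no test.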

How the data were processed

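RNA of 6 sorted cell populations, 2 Elf5+ and 4 Elf5-, was sequenced. Estimated counts (expected counts) of 52325 Ensembl genes were deposited by the authors as whole numbers. Per the submitters' processing notes they were made with Salmon on build GRCm38.p5. The sources used here give no Salmon version, annotation or strand setting. Rounding changed 0 values. Symbols were matched for 52220 identifiers, and coordinates came from GENCODE M21 (GRCm38). With edgeR 4.0.16 (R 4.3.3, limma 3.58.1), filterByExpr by group left 20684 genes, whose common biological coefficient of variation was 0.446. Libraries were scaled with TMM factors and compared with the quasi-likelihood test, with no block and Benjamini-Hochberg adjustment over all genes tested, at an adjusted p below 0.05. A standard error is the fold change (log2) over the square root of F, and 95% intervals use the t distribution of the fit. CPM are TMM-scaled. Arm levels are means of log2(CPM + 1), a scale that understates changes of low genes. Totals from 9106660 to 53694884 counts set the precision, and the shallowest library limits low genes. Alternatives were DESeq2 1.42.0, relative-log-expression factors, scaling to epithelial markers, no filter, a block for the title number, a fit of the T2 libraries, libraries left out and a pseudocount of 0.1. Figures used Python 3.11.15 and matplotlib 3.10.9. The fit was tested on simulated data. All 41 genes are named, and of each of the 7 neighbouring lists the 3 genes of smallest p. One gene that this rule names is not reported here. The members and all lists were chosen with earlier results of these data known.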

Additional observations from a re-analysis of the deposited data

Results flagged for a closer look

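In 3 of the 68 genes and arm averages looked at, 1 of the 4 Elf5- libraries lay far from the others, and each time it was library 2. The measure is the gap from the far library to its nearest neighbour as a share of the range of the 4 libraries, and the cut is Dixon's 95% critical value for 4 samples. Chance alone would mark about 5% of such groups. Fdps, with 86.2, 153, 89.7 and 81.9 CPM in Elf5- libraries 1 to 4, had a share of 0.890. Msmo1, with 73.4, 116, 73.5 and 77.0 CPM, had a share of 0.916. Both are sterol synthesis genes and take part in the ordering of libraries described above. Cpt1b, with 4.998, 11.8, 4.66 and 4.42 CPM, had a share of 0.921. Summed skeletal muscle markers were 202 CPM in Elf5- library 1 and 36.2 CPM in Elf5- library 2, and their part in these values was not tested.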

How the results depend on the processing

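The sterol minus fatty acid difference of 0.14 ran from -0.25 to 0.53 over the alternatives run, below 0 in some of them and above it in others. It was -0.045 scaled to the epithelial markers, 0.074 with T2 libraries only and the replicate block, 0.33 with Elf5- libraries 1 and 2 removed, -0.25 without Elf5+ library 1 and 0.53 without Elf5+ library 2, and from 0.095 to 0.14 under the others that kept all libraries. With libraries scaled to the epithelial markers, which moved the median of all genes from 0.05 to -1.44, 16 genes passed as higher and 11757 as lower, and 31 of the 41 genes examined passed as lower. The medians under that scaling were -1.34 for sterol synthesis, -1.28 for sensing and transfer, -1.49 for fatty acid synthesis, -1.32 for desaturation and elongation, -1.81 for glycerolipid and droplet genes and -1.41 for the fatty acid arm. Log2 fold changes that turned negative there were, for sterol synthesis, Acat2 -1.29, Mvk -1.45, Pmvk -1.04, Mvd -1.48, Idi1 -1.04, Fdps -0.90, Fdft1 -0.97, Sqle -1.14, Lss -1.23, Cyp51 -1.38, Msmo1 -0.91 and Ebp -1.42. Those of the other members were Srebf1 -0.65, Srebf2 -0.98, Scap -1.45, Insig1 -1.33, Insig2 -1.23, Acaca -1.10, Thrsp -1.34, Scd1 -0.91, Fads2 -1.15, Elovl1 -1.32, Elovl6 -0.16, Agpat2 -1.01, Dgat1 -1.09 and Plin2 -1.45. Those of neighbouring genes were Lbr -0.77, Mlxipl -0.064, Fbxw7 -0.66, Elovl7 -0.48, Acsl3 -0.69, Fabp5 -0.85, Mfge8 -0.14, Pnpla2 -0.44, Cpt1b -0.59 and Acadl -1.09. With no filter on low counts 273 genes passed as higher and 1331 as lower, the median of fatty acid synthesis was 0.10, Mvk was -0.0030 and Scap was -0.017. DESeq2 called 436 genes higher and 1763 lower, with 1 member in each direction. With the title number as a replicate block 252 genes passed as higher and Plin2 was -0.20, and of the neighbouring genes Pnpla2 and Cidea passed as higher and Hacd1 as lower, with adjusted p-values of 0.0230, 0.0310 and 0.0495 (edgeR). With T2 libraries only and the replicate block 549 genes passed as higher, 1368 as lower and 1 member, Srebf1, as higher (adjusted p = 0.0416, edgeR). There Pnpla2 and Cidea also passed as higher and Fabp4 as lower, with adjusted p-values of 0.0128, 0.0410 and 0.0282 (edgeR), and the log2 fold changes that turned were Hmgcs1 0.031, Mvk -0.12, Mvd -0.11, Lss -0.093, Cyp51 -0.027, Scap -0.088, Acly 0.051 and Plin2 -0.13. Same-numbered T2 libraries deviated together from their group means, with correlations of 0.584 and 0.666 over 20684 genes, but the labels do not say what the number is. The 2 values are not independent, since the deviations of the 2 Elf5+ libraries mirror each other. With Elf5- libraries 1 and 2 both removed, 0 genes passed as higher and 75 as lower (edgeR), with 539 higher where p was unadjusted and below 0.05, and Hmgcs1 was 0.35, Sc5d 0.32 and Acly 0.021. Over the fits that leave out each library in turn, genes higher ranged from 25 to 133, genes lower from 197 to 811 and members higher from 0 to 1, which was Elovl6 without Elf5+ library 1. The medians then ranged from -0.14 to 0.45 for sterol synthesis, from -0.36 to 0.30 for desaturation and elongation, from -0.25 to 0.10 for the fatty acid arm, from -0.14 to 0.0055 for fatty acid synthesis and from -0.66 to 0.21 for glycerolipid and droplet genes. The log2 fold changes that changed sign there ranged, in sterol synthesis, from -0.21 to 0.55 for Acat2, -0.63 to 0.26 for Hmgcs1, -0.15 to 0.20 for Mvk, -0.68 to 0.58 for Mvd, -0.017 to 0.92 for Fdft1, -0.15 to 0.72 for Sqle, -0.13 to 0.29 for Cyp51, -0.73 to 0.21 for Nsdhl, -0.54 to 0.18 for Sc5d, -0.25 to 0.34 for Ebp and -0.35 to 0.20 for Dhcr7. In the sensing and fatty acid genes they ranged from -0.068 to 0.12 for Scap, -0.57 to 0.64 for Insig2, -0.28 to 0.19 for Stard4, -0.14 to 0.092 for Acly, -0.43 to 0.81 for Acaca, -1.06 to 1.19 for Thrsp, -0.36 to 0.050 for Fads1, -0.43 to 0.70 for Fads2, -0.68 to 0.78 for Elovl1 and -0.49 to 0.049 for Elovl5. For the rest they ranged from -0.022 to 0.88 for Agpat2, -0.24 to 0.99 for Dgat1, -1.58 to 0.90 for Plin2 and -1.84 to 3.16 for Ppargc1a. The cause of these shifts was not tested. With 2 Elf5+ libraries a fit without one of them assumes that the other varies like the Elf5- libraries. Elf5- library 4, with 9106660 counts, limits genes of low level such as Olah and Thrsp.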
